A study of Mus musculus with 2 samples.

Results

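Adhesion molecules of the immunoglobulin superfamily that act on neurons were described here in the midbrain of newborn mice. The set held 34 genes, named by family and taken from the gene tables by their Ensembl identifiers, out of 43346 Ensembl genes in all, of which 21461 were protein-coding genes outside the mitochondrial genome. All 34 were found. The study sequenced total RNA from whole midbrain at postnatal day 0 in 2 libraries of 1 group, so no treatment or genotype was compared. Animals were of the strain B6NTac;B6NCrl/Lap, of both sexes and pooled: replicate 1 came from 15 animals, and for replicate 2 the number is not in the labels. The labels describe the libraries as biological replicates from separate isolates. Replicate 1 held 46685706 counts and replicate 2 held 72779229. Levels are in TPM, the abundance of a transcript after division by its length, on a scale with a fixed sum, so they can be set side by side between genes, and are given for each library and then as mean ± SD (n = 2). Checked against its label, the tissue had all 11 midbrain markers listed, such as Otx2 and En1, at 1 TPM or more in both libraries, and 2 of 7 forebrain markers. The 5 hindbrain Hox genes summed to 0.61 TPM in replicate 1 and 6.43 TPM in replicate 2, and the 4 choroid plexus markers, led by Ttr, to 16.4 and 166 TPM.

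Proteins of this class carry immunoglobulin domains outside the cell, often followed by fibronectin domains, and bind the same or a related protein on a neighbouring membrane. L1 and NCAM proteins promote axon growth and bundling, and contactins and IgLONs are held in the membrane by a lipid anchor and signal through partners. SynCAMs and neuroligin-binding MDGA proteins act at forming synapses, and DSCAM and sidekick proteins guide the choice of synaptic layer and spacing of neurites in the mouse retina.

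Every one of the 34 genes reached 1 TPM in both libraries, a level that 27.7% of all Ensembl genes and 53.8% of protein-coding genes reached. At 10 TPM or more in both stood 25 of 34, against 18.4% of protein-coding genes. The median gene of the set had 23.8 TPM in replicate 1 and 17.8 TPM in replicate 2 (20.8 ± 4.21), beside 1.91 and 1.60 TPM for all protein-coding genes and 7.94 and 6.56 TPM for those detected. Together the 34 genes took 0.782% of the gene counts in replicate 1 and 0.745% in replicate 2. The 5 highest, Bsg, Ncam1, Cadm3, Nptn and Cadm4, carried 46.5% and 47.5% of the set's summed TPM. On protein-coding transcripts alone the 5 highest were Bsg, Ncam1, Cadm4, Cntn1 and Chl1, while Cadm3 averaged 53.9 TPM and Nptn 44.7 TPM. TPM as deposited ran higher in replicate 1 for 30 of the 34 genes and lower for 4, Igsf21, Thy1, Iglon5 and Cntn2, beside a median log2 TPM ratio of 0.28 (replicate 1 over replicate 2) over 17712 genes. The order of the genes was close in the libraries (Spearman's rho 0.971 over 34 genes, which share library and depth). Of the 33 neighbouring pairs in the order by mean, 15 kept the same order within both libraries. The ranges over the libraries did not overlap in 8 pairs and overlapped in 25. These ranges include the general shift of TPM between the libraries.

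**Figure D1:**
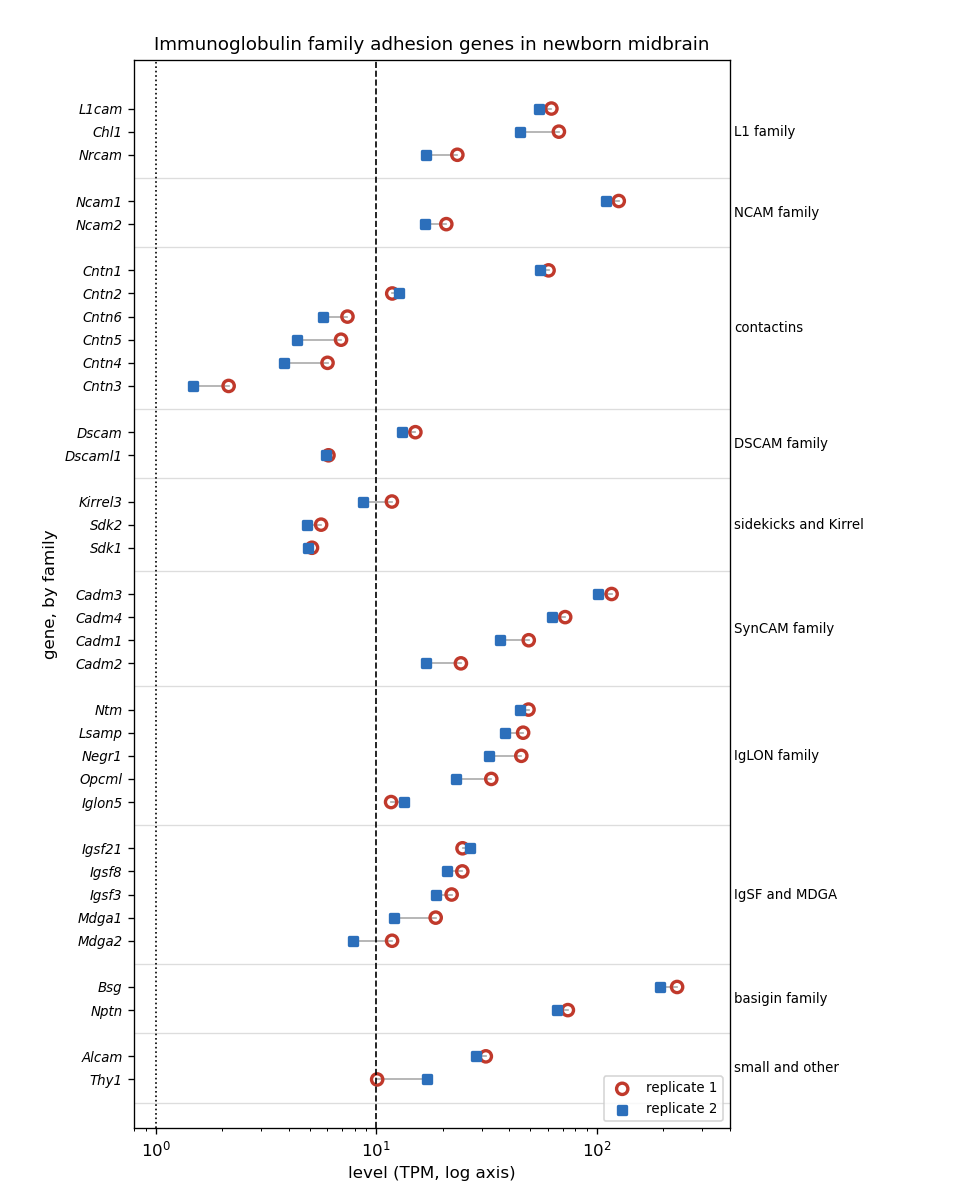
Level of each of the 34 genes in TPM on a log axis, by family, with an open circle for replicate 1 and a filled square for replicate 2, and lines at 1 and 10 TPM. Bsg stands highest at 231 and 193 TPM and Cntn3 lowest at 2.14 and 1.47 TPM.

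The L1 family was high in L1cam and Chl1 and lower in Nrcam. L1cam, the axonal receptor that gives the family its name, had 62.2 TPM in replicate 1 and 54.6 TPM in replicate 2 (58.4 mean). Chl1, its close homolog, had 67.3 and 44.8 TPM. On all transcripts the order of the pair turned between the libraries (log2 ratio of L1cam over Chl1 -0.11 and 0.28). On protein-coding transcripts alone L1cam had 49.3 and 42.7 TPM, and Chl1 was above it in both libraries. Nrcam, which helps to build nodes of Ranvier and guides axons, had 23.3 and 16.8 TPM. It stood below L1cam in both libraries, with a log2 ratio of -1.55 ± 0.20 (SD, n = 2), and below Chl1 at -1.47 ± 0.084. The proteins encoded by the main transcripts were 1209 to 1259 residues long and 41.6% to 43.7% identical in pairs. The tails of L1 proteins bind ankyrins, and of the 9 genes listed as anchors or tail partners all 9 were detected. The highest by mean were Ank2, an axonal ankyrin, at 87.7 and 66.8 TPM, the spectrin Sptbn1 at 78.2 and 54.0 TPM and Dcx, the microtubule protein of migrating neurons, at 77.5 and 44.9 TPM. The leading transcript of Nrcam held 71.1% and 64.7% of its molecules and the other 28.9% and 35.3%, while Chl1 had a single transcript.

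Small exons of L1cam are shown because they set the neuronal form of the protein, in which both are used. Sequences run 5′ to 3′ on the coding strand with 12 bases of the neighbouring exons in lower case and the optional exon in capitals. Both lie on the minus strand of GRCm38 (mm10), the 15-base exon near the start of the coding sequence at chrX:73867022-73867036 and the 12-base exon in the part for the cytoplasmic tail at chrX:73855652-73855663.
L1cam 15-base exon: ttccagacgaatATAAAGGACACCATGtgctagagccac
L1cam 12-base exon: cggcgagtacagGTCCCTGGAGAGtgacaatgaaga
Inclusion is the share of the TPM of the gene's annotated transcripts across the exon, coding or not, that carried it. The 15-base exon was included in 99.03% of transcripts in replicate 1 and 97.3% in replicate 2. The 12-base exon, which lies by a signal for endocytosis, was included in 74.2% and 70.5%, from 36.7 and 30.2 TPM with it and 12.8 and 12.6 TPM without it. The transcripts that skip it in the annotation also start at another site, so the exon and the start cannot be told apart in these estimates. Non-neural cells are known to skip both exons. The shares here come from whole tissue and the cells behind them were not tested.

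Ncam1, the neural cell adhesion molecule, had 126 TPM in replicate 1 and 110 TPM in replicate 2 (118 mean), with 50788 and 79345 counts. Its paralog Ncam2, known from olfactory axons, had 20.8 and 16.7 TPM. Ncam1 was higher in both libraries, with a log2 ratio of 2.65 ± 0.084 (SD, n = 2) or 6.28-fold. The proteins were 46.2% identical. NCAM at birth carries polysialic acid, a long sugar chain that weakens adhesion. Its makers St8sia2 and St8sia4 had 21.4 and 13.8 TPM and 14.7 and 11.1 TPM, and their log2 ratio of 0.42 ± 0.16 did not reach 2-fold. The 5 genes listed for this modification included 4 detected, with the lysosomal sialidase Neu1 at 9.19 and 17.7 TPM, and the sialidase Neu4 was below 1 TPM in both libraries, at 0.21 and 0.17.

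The optional exons of Ncam1 are shown because the known forms of the protein differ by them. The 30-base exon, known as VASE, adds residues to an immunoglobulin domain and is known to slow neurite growth. The 15-base and 3-base exons are parts of the insert between the fibronectin domains that muscle uses in full. On the minus strand of GRCm38 they lie at chr9:49550540-49550569, chr9:49541888-49541902 and chr9:49531974-49531976, with capitals marking the optional exon.
Ncam1 30-base exon: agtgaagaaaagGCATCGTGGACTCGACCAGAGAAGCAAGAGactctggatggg
Ncam1 15-base exon: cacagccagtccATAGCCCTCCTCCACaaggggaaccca
Ncam1 3-base exon: gccctcctccacAAGgggaacccagtg
Inclusion of each of the 3 was 29.1% in replicate 1 and 32.3% in replicate 2. The 3 values are equal because a single annotated coding transcript with reads, Ncam1-205, carries all of them, together with the 801-base exon of the longest cytoplasmic tail and a start 230.2 kb from the main one. Their separate use cannot be told apart here. The 801-base exon was included in 31.5% and 37.1% of transcripts that reach that part of the gene. The leading transcript, Ncam1-204, has the shorter tail and held 50.3% and 41.5% of the gene's molecules. The 42-base and 48-base exons of the muscle insert were listed at 0 in both libraries.

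Contactins spread over a wide range of levels. Cntn1, a partner of Notch, L1 proteins and tenascin-R, had 60.4 TPM in replicate 1 and 55.1 TPM in replicate 2. Cntn2, known as TAG-1 on early axons, had 11.8 and 12.7 TPM and stood below Cntn1 in both libraries (log2 ratio of Cntn1 over Cntn2 2.23 ± 0.17, SD, n = 2). It was also below L1cam, its ligand on other axons, at -2.24 ± 0.21. Cntn6, also called NB-3, had 7.40 and 5.71 TPM and Cntn5, also called NB-2, 6.92 and 4.35 TPM, and neither was 2-fold above the other. Cntn4, which binds the amyloid precursor protein, had 6.01 and 3.81 TPM. Cntn3 had 2.14 and 1.47 TPM from 803 and 1024 counts, the lowest of the 34 genes, and its log2 ratio to Cntn4 was -1.38 ± 0.093. Cntn3 and Cntn4 were 64.7% identical in protein, the highest value among the 15 contactin pairs, which began at 42.7%. The genes of Cntn3, Chl1, Cntn6 and Cntn4 follow each other on chromosome 6 with 0 protein-coding genes between them and gaps of 937.5, 742.6 and 814.3 kb. Along that stretch the means differed widely: Chl1 stood at 67.3 and 44.8 TPM between neighbours that were at 7.40 TPM or less in every library. Of 17 contactin partners listed, 16 were detected, and Cntnap3 was below 1 TPM at 0.40 and 0.29. The highest were Aplp1 at 195 and 166 TPM and App at 133 and 110 TPM, both of the amyloid precursor family, and the proteoglycan Bcan at 52.9 and 52.1 TPM. The phosphatase Ptprz1, a receptor of Cntn1, had 44.6 and 35.2 TPM, and Cntnap2, which pairs with Cntn2 on myelinated axons, 31.4 and 25.1 TPM.

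Dscam had 15.0 TPM in replicate 1 and 13.1 TPM in replicate 2, and Dscaml1 6.07 and 5.91 TPM. Dscam was higher in both libraries at a log2 ratio of 1.21 ± 0.12 (SD, n = 2). The proteins had 2013 and 2111 residues and were 61.5% identical. Sdk1 had 5.11 and 4.92 TPM and Sdk2 5.62 and 4.87 TPM, and their ratio changed sign between the libraries. Retained-intron and other non-coding transcripts held part of both sidekicks, and 65.6% and 60.8% of the molecules of Sdk1 lay on protein-coding transcripts. For Sdk2 that share was 57.3% and 59.3%. Kirrel3, an adhesion protein of the nephrin group that matches olfactory and hippocampal partners, had 11.8 and 8.67 TPM. Its optional 36-base exon, at chr9:35025111-35025146 on the plus strand of GRCm38, is shown because its inclusion differed between the libraries.
Kirrel3 36-base exon: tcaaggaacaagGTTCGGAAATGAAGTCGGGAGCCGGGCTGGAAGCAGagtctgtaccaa
It was included in 43.9% of transcripts in replicate 1 and 60.2% in replicate 2, from 4.91 and 4.90 TPM with the exon and 6.27 and 3.24 TPM without it.

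The SynCAM family was high in all 4 members and summed to 262 TPM in replicate 1 and 218 TPM in replicate 2, which was 19.6% and 19.4% of the summed TPM of the 34 genes. Cadm3 had 117 and 101.4 TPM, Cadm4, which joins axons and Schwann cells in nerve, 71.9 and 62.9 TPM, Cadm1, an organiser of excitatory synapses, 49.1 and 36.5 TPM, and Cadm2 24.2 and 16.8 TPM. The level of Cadm3 rests in part on a retained-intron transcript of 774 bases. That transcript held 42.6% and 45.2% of the gene's molecules but 9.55% and 10.3% of its counts, and on protein-coding transcripts alone Cadm3 had 59.9 and 47.8 TPM. The log2 ratio of Cadm4 over Cadm3 was -0.69 on all transcripts and 0.33 on protein-coding ones. Cadm3 is also the member whose counts were not whole, so that reads were divided with another gene, and it shares exons on the same strand with Ackr1. Cadm1 was above Cadm2 in both libraries at a log2 ratio of 1.07 ± 0.067 (SD, n = 2), which became 0.98 on protein-coding transcripts alone and 1.03 with a pseudocount of 1, no longer past 2-fold in both libraries. All 10 of the scaffolds and tail partners listed were detected. The actin-binding drebrin gene Dbn1 had 106 and 93.5 TPM, Epb41l1 58.7 and 50.2 TPM, and Cask, a scaffold that binds SynCAM tails, 44.9 and 26.8 TPM.

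Optional exons of Cadm1 are shown because they set the stretch just outside the membrane, which carries sugars and is cut by proteases. A small exon of Cadm2 is shown beside them for its intermediate share. On GRCm38 those of Cadm1 lie on the plus strand at chr9:47818734-47818817, chr9:47829377-47829409 and chr9:47836717-47836770, and that of Cadm2 on the minus strand at chr16:66953274-66953300. Capitals again mark the exon.
Cadm1 84-base exon: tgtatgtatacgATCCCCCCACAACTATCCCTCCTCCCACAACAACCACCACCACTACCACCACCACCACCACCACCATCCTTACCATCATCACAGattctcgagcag
Cadm1 33-base exon: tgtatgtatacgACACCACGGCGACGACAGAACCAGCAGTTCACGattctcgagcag
Cadm1 54-base exon: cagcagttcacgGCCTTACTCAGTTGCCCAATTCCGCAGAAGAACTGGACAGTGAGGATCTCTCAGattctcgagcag
Cadm2 27-base exon: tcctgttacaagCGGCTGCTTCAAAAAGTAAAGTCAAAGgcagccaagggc
The 33-base exon of Cadm1 was included in 87.2% of transcripts in replicate 1 and 87.6% in replicate 2, the 84-base exon in 29.8% and 28.3%, and the 54-base exon in 11.1% and 16.0%. The libraries were within 5 percentage points of each other for all 3. The 27-base exon of Cadm2 was included in 79.0% and 71.9%. Its share of counts was larger, with 13391 and 15698 counts with the exon and 981 and 1653 without it, since the transcripts that skip it are annotated as shorter.

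**Figure D2:**
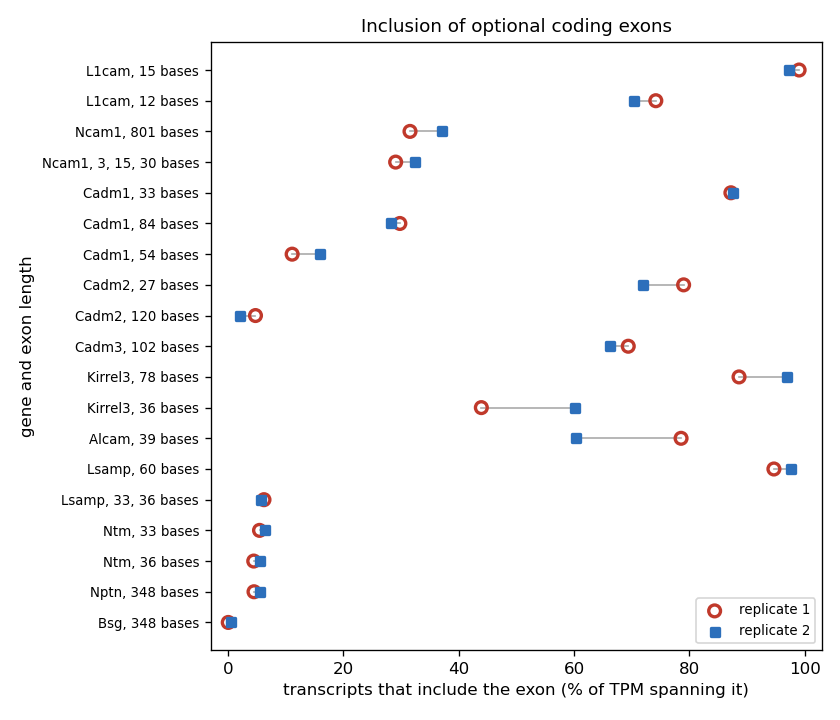
Inclusion of 19 optional coding exons or sets of exons with equal values as a percent of the TPM of the gene's annotated transcripts across each exon, coding or not, with an open circle for replicate 1 and a filled square for replicate 2. The L1cam 15-base exon is at 99.03% and 97.3%, the Bsg 348-base exon at 0.0304% and 0.437%, and the Kirrel3 36-base exon at 43.9% and 60.2%.

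The 5 IgLON genes, short lipid-anchored proteins with 3 immunoglobulin domains and 336 to 348 residues, summed to 186 TPM in replicate 1 and 152 TPM in replicate 2. Ntm, or neurotrimin, had 49.0 and 44.8 TPM, Lsamp, the limbic system-associated protein, 46.3 and 38.4 TPM, and Negr1 45.5 and 32.4 TPM. None of the pairs compared among these 3 reached 2-fold. Opcml, a synonym of which is OBCAM, had 33.2 and 23.1 TPM, and Iglon5 11.7 and 13.3 TPM. Opcml was above Iglon5 by a log2 ratio of 1.5 in replicate 1 and 0.79 in replicate 2, so the pair was not called. Ntm and Opcml were the most alike in protein at 73.0% identity, and their genes lie 69.34 kb apart on chromosome 9 with 0 protein-coding genes between them, on opposite strands with their 3′ ends facing.

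Lsamp, Ntm and Opcml each had annotated start sites far apart. The share of a start here is the estimated TPM of the coding transcripts annotated from it, and starts were not measured. Lsamp started at a pair of sites 1548 kb apart on chromosome 16: the far one held 34.8% of coding TPM in replicate 1 and 36.9% in replicate 2, at 15.1 and 13.1 TPM, and the near one 59.4% and 57.5%, at 25.8 and 20.4 TPM. In Ntm the sites were 551.4 kb apart, with 51.9% and 46.2% from the far one, and in Opcml 612.9 kb apart, with 83.97% and 82.2% from the far one. Of the 34 genes, 9 had a pair of annotated starts that each held over 15% of coding TPM in both libraries. The same count was not made over all genes. In Mdga2 the second start rests on a fragment of 423 bases with 1.43% and 1.16% of the counts, and in Alcam the starts lie 1.609 kb apart. The 100 bases before both Lsamp starts are shown because the sites differ in composition. They come from RefSeq promoters on GRCm38 (plus strand), at chr16:39984264-39984363 for the far start and chr16:41532726-41532825 for the near one, with every CG in capitals.
Lsamp far start: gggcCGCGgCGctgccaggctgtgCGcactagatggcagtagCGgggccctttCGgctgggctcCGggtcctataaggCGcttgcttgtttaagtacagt
Lsamp near start: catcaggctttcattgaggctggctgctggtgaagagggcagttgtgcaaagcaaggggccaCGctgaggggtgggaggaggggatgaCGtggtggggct
The far window held 8 CG and the near window 2. Over the 300 bases of each promoter the number of CG over that expected from the C and G content was 0.592 at the far start and 0.127 at the near one. RefSeq gave 35 promoters for 28 of the 34 genes, with a median ratio of 0.656, beside 0.384 for all 32851 promoters, and 21 of the 35 were at 0.6 or more, as were 35.8% of all. The letters TATAAA, searched on both strands of the promoter bases before the start, were in 1 of the 35, in Cntn1, and in 12.4% of all.

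Igsf21, a neurexin-binding protein of inhibitory synapses, had 24.6 TPM in replicate 1 and 26.6 TPM in replicate 2. Igsf8, a partner of tetraspanins, had 24.6 and 20.9 TPM, and Igsf3 21.96 and 18.6 TPM, and the pair differed by a log2 ratio of 0.16 ± 0.0058. Mdga1 had 18.6 and 12.0 TPM and Mdga2 11.8 and 7.85 TPM, a pair of anchored proteins that cover neuroligins. Part of the deposited level of both lay on fragments. A non-coding transcript of 539 bases, Mdga1-204, held 30.8% of the Mdga1 molecules in replicate 1 and 3.05% in replicate 2, but 1.71% and 0.125% of its counts. By TPM Mdga1 had a log2 ratio of 0.63 (replicate 1 over replicate 2), and by scaled counts -0.086. For Mdga2, a coding fragment of 423 bases held 34.7% and 29.9% of molecules and 1.43% and 1.16% of counts. All 6 of the partners listed were at 10 TPM or more in both libraries, among them Nrxn2 at 85.5 and 69.0 TPM and Nlgn3 at 40.2 and 34.4 TPM.

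Bsg, or basigin, the chaperone of lactate transporters, was the highest of the 34 genes at 231 TPM in replicate 1 and 193 TPM in replicate 2 (212 ± 26.8), above 99.7% of protein-coding genes by mean. Nptn, or neuroplastin, a subunit of plasma membrane calcium pumps, had 73.9 and 66.1 TPM, 3.02-fold below Bsg (log2 ratio of Bsg over Nptn 1.60 ± 0.068, SD, n = 2). Slc16a1, the lactate transporter that needs Bsg at the surface, had 6.64 and 6.71 TPM, and Bsg was 31.2-fold above it. Of the 11 partners listed for Bsg and Nptn 10 were detected. Ppia, a cyclophilin that binds Bsg, had 531 and 421 TPM, the sodium pump subunit Atp1b2 31.0 and 29.5 TPM and the calcium pump Atp2b2 18.4 and 18.2 TPM, while Slc16a8, the lactate transporter of the retinal pigment epithelium, was below 1 TPM at 0.010 and 0.17. Both genes have an optional 348-base exon for an extra immunoglobulin domain. In Bsg, where it makes the retinal form, it was included in 0.0304% and 0.437% of transcripts. In Nptn, where it makes the brain-specific form found at synapses, it was included in 4.50% and 5.60%, from 3.08 and 3.01 TPM with the exon and 65.4 and 50.8 TPM without it. The TPM without the exon includes non-coding and fragment transcripts, and over protein-coding transcripts alone, a comparison added after the data were seen, the exon was included in 6.64% and 7.22%.

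A 12-base choice in the tail of Nptn was used at an intermediate share, and is shown for that reason. It lies at chr9:58650497-58650508 on the plus strand of GRCm38 and arises from alternative splice sites of the same exon. Capitals mark the optional bases.
Nptn 12-base segment: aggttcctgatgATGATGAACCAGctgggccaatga
The long form held 24.4% of the TPM of these forms in replicate 1 and 31.2% in replicate 2. A fragment of 429 bases, Nptn-213, took 29.5% and 15.4% of the gene's molecules and 4.15% and 2.03% of its counts, and the authors' credibility bounds for the gene were wide, at 67.7 to 79.99 TPM and 61.8 to 70.6 TPM.

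Thy1, a small lipid-anchored protein of mature axons and of T cells, had 10.1 TPM in replicate 1 and 17.0 TPM in replicate 2, with 1126 and 3517 counts. On counts scaled with trimmed means in edgeR, its log2 ratio of replicate 1 over replicate 2 was -1.04. It was the only one of the 34 genes past 2-fold either way, while 9.32% of 18554 genes tested were 2-fold or more lower in replicate 1 and 7.7% were 2-fold or more higher. Scaled by the spike-in RNAs the ratio was -0.997, and as TPM with no scaling -0.76, both short of 2-fold. In a tissue sample, fewer cells of a type and less RNA per cell cannot be told apart. Of 7 mature neuron markers 5 were lower in replicate 1 by scaled counts, by less than 2-fold each. The summed TPM of the 7, which includes the general shift of TPM, was 259 and 260. All 7 oligodendrocyte lineage genes with a ratio were lower in replicate 1. So were 7 of 8 progenitor and astroglia markers, 5 of 6 microglia markers, 5 of 5 blood markers, 4 of 4 choroid plexus markers and 5 of 5 hindbrain genes. Most immature neuron, endothelium, mural and meninges markers were higher in replicate 1. The part of these cell types in the Thy1 difference was not tested. Of the 4 T cell and thymus genes, Cd3e and Cd3d had 0 counts in both libraries, Ptprc was below 1 TPM at 0.40 and 0.74, and Lck, a kinase also reported in brain, had 4.34 and 3.21 TPM.

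Alcam, a receptor with 5 immunoglobulin domains on growing axons, had 31.4 TPM in replicate 1 and 28.4 TPM in replicate 2. Its leading transcript, Alcam-201, held 71.3% and 44.6% of its molecules and 91.4% and 78.7% of its counts. The 39-base exon below lies at chr16:52268790-52268828 on the minus strand of GRCm38 and is shown, with the exon in capitals, because its inclusion differed between the libraries.
Alcam 39-base exon: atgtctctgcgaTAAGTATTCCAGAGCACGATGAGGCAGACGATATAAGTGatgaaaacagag
It was included in 78.6% and 60.3% of transcripts. The skipping form is a single transcript, Alcam-207, with 826 and 2151 counts, against 9954 and 10550 counts with the exon. Alcam-207 also starts at another site than Alcam-201 and is annotated as shorter, at 1917 against 6036 bases. The exon, the start and the transcript length cannot be told apart in these estimates.

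Over the 34 genes, 12 exons of at most 60 bases were included in 5% to 95% of transcripts in both libraries, in 8 genes, and all 12 were a multiple of 3 bases long, so that skipping them keeps the reading frame. They are not all separate, since the 3 of Ncam1 rest on the same transcript and those of Lsamp have equal values. The Nptn exons of 22, 10 and 7 bases, not multiples of 3, were outside that range in replicate 2. The exons and starts described were picked after their values were seen. Non-coding transcripts held a small share of most genes but not of all, and the counts below do not cover coding fragments such as that of Mdga2. In 23 genes at least 90% of the molecules were on protein-coding transcripts in both libraries, and 7 were under 80% in a library. Of the 34 genes, 8 had a single transcript in the annotation and 22 had a transcript with at least 50% of the molecules in both libraries. The same transcript led in both libraries in 32 of 34 genes, where Igsf8 and Kirrel3 were the exceptions. The 8 genes with a single transcript are in both counts by construction. In 30 genes the transcript that led by molecules also led by counts in both libraries, which left out Cadm3 and Sdk1.

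Of 22 pairs of paralogs or partners set against each other within a library, 10 were 2-fold or more apart the same way in both. These were Ncam1 over Ncam2, Cntn1 over Cntn2, Dscam over Dscaml1, Cadm1 over Cadm2, Bsg over Nptn and over Slc16a1, and on the lower side Nrcam against L1cam and Chl1, Cntn2 against L1cam and Cntn3 against Cntn4. The other 12 did not reach 2-fold in both libraries, which does not show that they were equal.

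**Figure D3:**
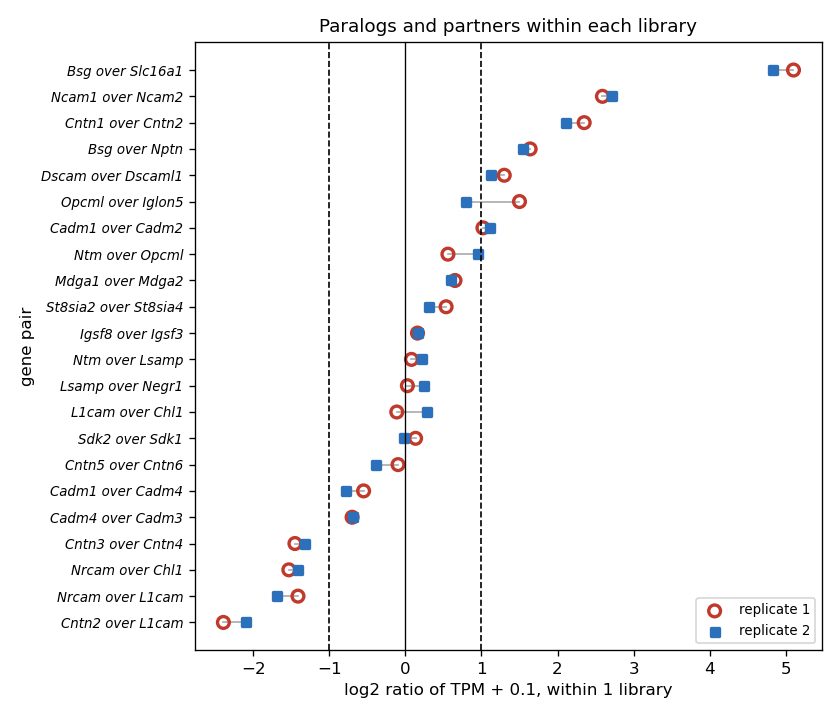
Log2 ratio of TPM + 0.1 of the gene named first over the gene named second within each library, with an open circle for replicate 1, a filled square for replicate 2 and dashed lines at 2-fold. Ncam1 over Ncam2 is at 2.59 and 2.71, and Opcml over Iglon5 is past the line only in replicate 1, at 1.5 against 0.79.

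Between the libraries the 34 genes had a median absolute log2 ratio of 0.18 on scaled counts, and 26 were within 0.3 either way. Over all 18554 genes tested the median was 0.28, and over the 3939 protein-coding genes at 10 TPM or more in both it was 0.15, so the set was near the genes of like level. Within 0.3 were 76.5% of the set, 51.8% of all genes tested and 80.8% of those 3939 genes. The ratios ran with the length of the gene on the chromosome. Of the 10 genes under 100 kb, 0 were higher in replicate 1, with a median log2 ratio of -0.11. Of the 13 from 100 to 500 kb, 6 were higher in replicate 1. Of the 11 over 500 kb, 8 were higher, with a median of 0.21. Spearman's rho between length and ratio was 0.557 over the 34 genes. The protein-coding genes at 10 TPM or more ran the same way with less spread of the medians, at -0.06 for 3373 genes under 100 kb and 0.13 for 72 genes over 500 kb (rho 0.288 over 3939 genes). Of these, 1352 of 3373 under 100 kb, 283 of 494 from 100 to 500 kb and 53 of 72 over 500 kb were higher in replicate 1. The immature neuron markers were higher in replicate 1 in 5 of 6 genes, the meninges markers in 4 of 5, the mural markers in 4 of 5 and the endothelium markers in 4 of 6. What lay behind the relation with length was not tested.

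**Figure D4:**
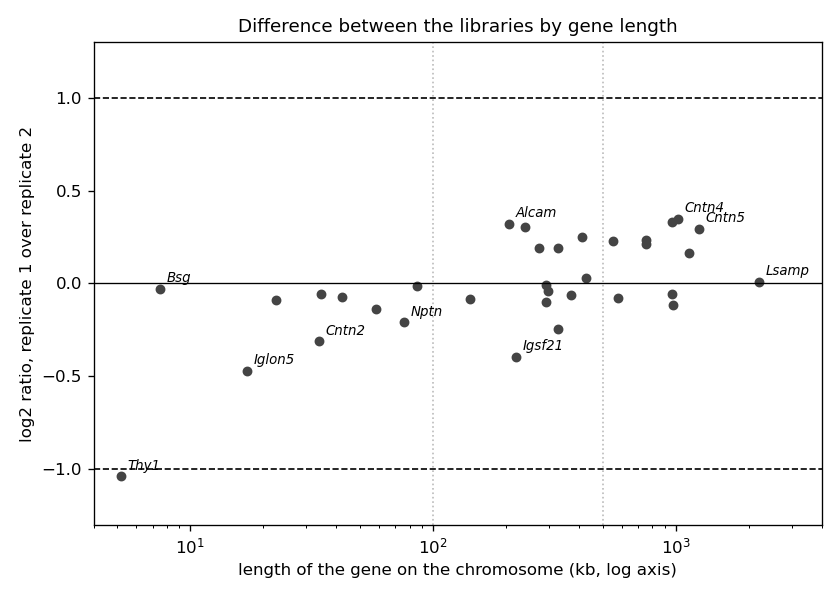
Log2 ratio of scaled counts, replicate 1 over replicate 2, against the length of each of the 34 genes in kb on a log axis, with dashed lines at 2-fold and dotted lines at 100 and 500 kb. All 10 genes under 100 kb lie below 0, from Thy1 at -1.04 to Igsf3 at -0.015, and 8 of the 11 genes over 500 kb lie above it. Not drawn, 1352 of 3373 protein-coding genes at 10 TPM or more under 100 kb and 53 of 72 over 500 kb were above 0.

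The 34 genes were on 14 chromosomes, with 9 on chromosome 9, 5 on chromosome 16 and 4 on chromosome 6. The exons of 11 genes overlapped another gene in the annotation, on the same strand for L1cam with Arhgap4 and Cadm3 with Ackr1. The libraries are stranded per the labels, and 33 of 34 genes had whole counts within 0.005 in both libraries, with no read divided between genes.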

How the data were processed

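The 2 libraries of stranded total RNA over 200 nucleotides, depleted of rRNA and sequenced from both ends at 101 bases per the labels, were analysed. They are biological replicates from independent isolates per the labels. The authors deposited estimated counts, TPM, FPKM and credibility bounds per gene, and per transcript its percent of the gene, on mm10. The quantification program is not given in the sources used here. Counts that fit no Ensembl gene (1.21% in replicate 1) stayed out.

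Symbols, exons and starts came from GENCODE M21 on GRCm38, used for exons only where transcript lengths matched those deposited (175 of 190 transcripts, 47 of 54 optional coding exons). Promoters were RefSeq's. Protein lengths and identities came from translating the leading coding transcript with Biopython 1.88. Detection was a TPM of at least 1. Pairs used log2(TPM + 0.1), called at 2-fold in both libraries. The ratio of the libraries used edgeR 4.0.16 (TMM) on rounded estimated counts, where both libraries together held 10 counts or more, and DESeq2 1.42.0 size factors as an alternative. The calculation was tested on simulated data with 4-fold changes and less spread than in these libraries, so that test does not check calls near 2-fold. With 1 library a side no p-value was computed, and an SD of 2 values is a rough measure.

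The genes named were all members, the genes of the pairs and, of each of 9 lists of partners, the 3 highest by mean TPM and those below 1 TPM in both libraries. A gene that this rule names is not reported here. Ptprz1, Cntnap2, Nfasc, Fgfr1 and the marker genes named were chosen after their values were seen. Members and lists were chosen with earlier results of these data known. The authors' credibility bounds are given for each library and do not cover the spread between libraries.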

Additional observations from a re-analysis of the deposited data

How the results depend on the processing

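All 34 genes stayed at 1 TPM or more under every alternative run except a threshold of 2 TPM, where 33 did. The median level was 36.9 as FPKM and 105 as TPM rescaled over protein-coding genes, since both change the scale, and 17.8 to 23.8 TPM with either library left out. The genes at 10 TPM or more then numbered 25 to 27, the pairs called 10 to 11, and the genes with 1 transcript at 50% or more 25 to 26, beside 22 in both. A 4-fold threshold left 4 pairs. Counts not divided by length changed the sign of 7 of 22 pairs. Of these, 3 were called in either setting, Cadm1 over Cadm2 at -0.027, Ntm over Lsamp at -1.32 and Igsf8 over Igsf3 at -1.74, and 4 in neither. Nrcam over L1cam, at -0.67, was no longer called. Protein-coding transcripts alone changed the sign of 3 pairs, L1cam over Chl1, Cadm4 over Cadm3 and Sdk2 over Sdk1. Inclusion of 13 exons was recomputed on protein-coding transcripts, a setting added after seeing the data, and 1 moved by more than its SD, the 348-base exon of Nptn. Most of the 13 had no non-coding transcript across them, so the setting could not change their values. The 102-base exon of Cadm3 was not among the 13. Its mean inclusion was 67.9% (SD 2.18) on all transcripts and 38.2% on protein-coding ones alone. With the spike-in median, or TPM with no scaling, 0 genes were past 2-fold between the libraries instead of 1, Thy1. No paired analysis was possible because the labels define 1 group. Short annotated fragments limit the levels of Cadm3, Nptn, Mdga1, Mdga2, Sdk1 and Sdk2, and 2 libraries limit every SD.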

Other observations

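Immunoglobulin adhesion genes outside the set, taken from a list of 27 measured, were detected in 24 and stood at 10 TPM or more in both libraries in 8. The highest were the receptor phosphatase Ptprs at 110 TPM in replicate 1 and 90.4 TPM in replicate 2, its relative Ptprf at 29.9 and 26.6 TPM, and Neo1, a netrin and RGM receptor, at 27.4 and 22.9 TPM. Nfasc, the L1 family member of the axon initial segment, had 14.2 and 10.9 TPM. Nphs1, the kidney slit protein, was below 1 TPM at 0 and 0.050, as was Hepacam2 at 0.65 and 0.36.

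Of 7 proteases that cut adhesion proteins from the surface, 6 were detected. Bace1, which cuts Chl1, had 13.0 and 14.2 TPM, Mmp14 9.53 and 7.59 TPM, and Adam10, which cuts L1cam, 5.85 and 3.14 TPM. Bace2 was below 1 TPM at 0.37 and 0.32. All 8 genes listed for NCAM signalling were detected. Gap43, a growth cone protein, had 235 and 160 TPM, the spectrin Sptan1 171 and 145 TPM, the prion protein gene Prnp 54.2 and 46.8 TPM, and Fgfr1, a receptor that NCAM activates, 13.0 and 12.9 TPM.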
